A study of Homo sapiens with 12 samples.

Results

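The 7 genes AIFM2, DHODH, GCH1, QDPR, COQ2, VKORC1L1 and PROM2 act in defence against ferroptosis by routes other than GPX4. They were taken by name, and all 7 were found both among the 61806 genes of the LP-1 table and among the 19130 of the U266 table. Their mRNA levels were compared in LP-1 and U266, established human lines of multiple myeloma labelled wild type, between cells given dihydroartemisinin (DHA) at the IC50 and cells given the same amount of the solvent DMSO, each for 12 h. The concentration itself is not given in the labels. Each line had 3 DMSO and 3 DHA libraries, 12 in all, and nothing in the labels says that replicates were separate cultures, so a p-value here reflects the scatter among these libraries alone, which may be technical.

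Ferroptosis is an iron-dependent cell death that follows peroxidation of membrane lipids, and DHA is an endoperoxide antimalarial whose activity depends on iron. GPX4 reduces lipid hydroperoxides with glutathione. Other routes supply small lipid-soluble molecules that trap lipid radicals: reduced ubiquinone at the plasma membrane (made by FSP1, the product of AIFM2) and in mitochondria (DHODH), tetrahydrobiopterin (GCH1 and QDPR) and reduced vitamin K (FSP1 and, in the vitamin K cycle, VKORC1L1). Myeloma cells derive from plasma cells, whose heavy secretion places a large oxidative load on the endoplasmic reticulum.

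Values are FPKM, fragments scaled by transcript length and library size, and each table was normalized on its own, so levels were not compared between the lines. Depth recovered from the steps of low values was 13.4 to 17.5 M (10.3 to 21.8 M) reads in genes per LP-1 (U266) library. The summed level of 8 plasma cell markers was 996 to 1358 FPKM with DMSO and 931 to 943 FPKM with DHA in LP-1, and 1045 to 1064 against 706 to 773 FPKM in U266. Of the 7 tested in each line, 4 fell in each (SDC1 with log2 changes of -2.37 in LP-1 and -1.11 in U266), and 2 rose in LP-1 and none in U266. The 2 that rose in LP-1 were IRF4 (log2 change 1.66) and PRDM1 (0.68). In U266 PRDM1 fell (-0.19) and IRF4 did not pass. Over all tested genes 20.0% rose and 20.2% fell in LP-1, and 21.1% rose and 19.6% fell in U266. Among markers of other cell types, PECAM1 fell in LP-1 (log2 change -1.23), and in U266 HBB fell (-0.54) and COL1A1 rose (0.51; limma, adjusted p = 0.0491). COL1A1 was low, at 0.842, 0.783 and 1.07 FPKM with DMSO and 2.38, 1.11 and 1.77 FPKM with DHA. It was tested only because its DHA libraries reached 1 FPKM. In LP-1 5 T and NK cell markers summed to at most 0.34 FPKM. The part of these marker changes in the results was not tested. A pair of libraries stood apart. In LP-1, DMSO replicate 3 held 99.2 FPKM of GPX4 against 48.5 and 59.1 FPKM in the other DMSO libraries. In U266, DHA replicate 3 had 18399 genes above 0 against 14682 to 14992 in the other 5 libraries, and 2032 genes were above 0 in it alone. Calls and list counts that changed without either library are given with and without it. GPX4 itself did not pass the test in either line (limma, adjusted p = 0.11 in LP-1 and 0.0909 in U266, on log2 changes of -0.57 and -0.17), although in LP-1 it passed without DMSO replicate 2 (log2 change -0.79) or without DMSO replicate 3 (-0.28).

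A change is the difference in log2(FPKM + 1) between DHA and DMSO, which understates changes of low genes, and a gene was tested where it reached 1 FPKM in at least 3 of the 6 libraries of its line. "Rose" and "fell" mean a Benjamini-Hochberg adjusted p under 0.05 in limma over all tested genes of that line. In bulk RNA, fewer cells with a transcript and less of it per cell cannot be told apart. Of the 7 genes, 5 were tested in LP-1 and none rose or fell, where 40.2% of all tested genes did (20.0% rose and 20.2% fell). DHODH alone had an unadjusted p under 0.05 there. In U266 6 were tested, and AIFM2 rose, VKORC1L1 fell and 4 did not pass, against 40.7% of all tested genes that rose (21.1%) or fell (19.6%). The groups lay apart for VKORC1L1 and DHODH in LP-1 and for AIFM2 and VKORC1L1 in U266, while 58.8% of all tested genes in LP-1 (30.2% higher and 28.6% lower with DHA) and 51.5% in U266 (27.6% higher and 23.9% lower) had groups that did not overlap. In LP-1 VKORC1L1 was the higher and DHODH the lower with DHA.

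**Figure D1:**
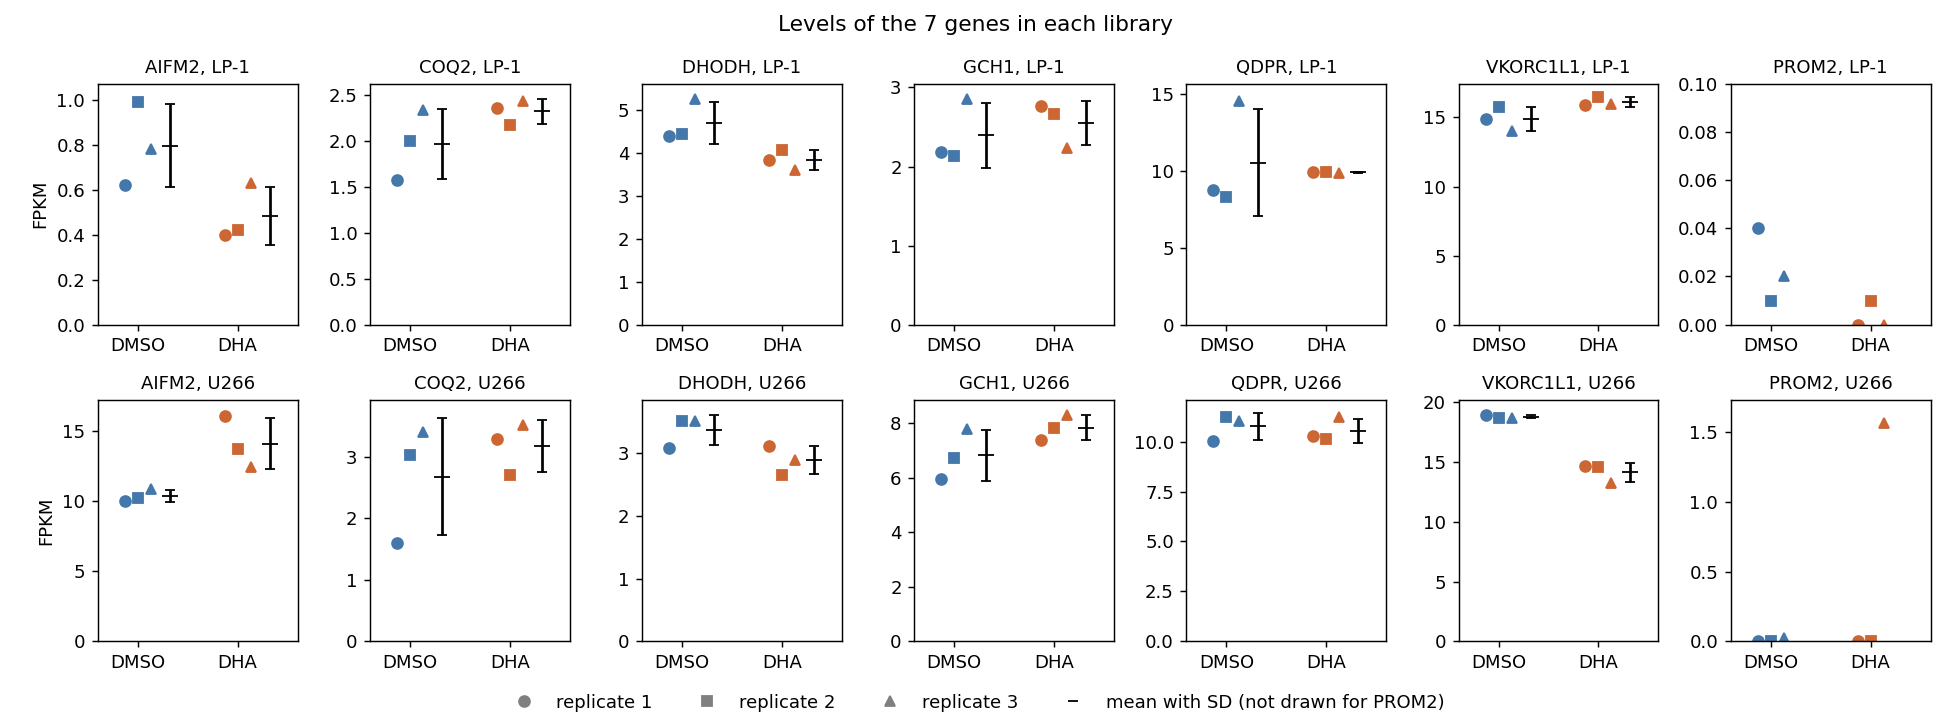
FPKM of the 7 genes in each of the 12 libraries, in a panel per gene and line, with points for libraries and the mean with SD (3 libraries per group) beside them except for PROM2. AIFM2 is above 10 FPKM and higher with DHA in all 3 U266 libraries but below 1 FPKM throughout LP-1, and PROM2 is at 1.57 FPKM in U266 DHA replicate 3 and at most 0.04 FPKM in the other libraries.

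The upstream sequences of AIFM2 and VKORC1L1 are shown because these were the genes that rose or fell, in opposite directions in U266, and that of VKORC1 because it is the paralog whose ratio to VKORC1L1 is given here. They come from RefSeq promoters on GRCh38.p14, are written 5′ to 3′ on the strand of the gene, and have in capitals the match, on the opposite strand, to the core of the antioxidant response element, TGACNNNGC, the motif bound by NRF2. The AIFM2 site lies at chr10:70132829-70132858 on the minus strand, 33 to 4 bases upstream of the RefSeq start and inside an AIFM2 exon of GENCODE v29. The VKORC1L1 site lies at chr7:65872853-65872882 on the plus strand, 221 to 192 bases upstream and outside any exon. The VKORC1 site lies at chr16:31094810-31094839 on the minus strand, 42 to 13 bases upstream and inside an annotated exon.
AIFM2 site: ccagcacgagtGCTGAGTCAcgccccgccc
VKORC1L1 site: gccgagggttcGCCCAGTCAcccacagtgg
VKORC1 site: gccggccaatcGCCGAGTCAgagggccagg
The wider stretch upstream of AIFM2 that lies outside exons (chr10:70132935-70133075, minus strand) and the 250 bases upstream of VKORC1L1 (chr7:65872824-65873073, plus strand), the latter with its match in capitals, read as follows.
AIFM2 upstream: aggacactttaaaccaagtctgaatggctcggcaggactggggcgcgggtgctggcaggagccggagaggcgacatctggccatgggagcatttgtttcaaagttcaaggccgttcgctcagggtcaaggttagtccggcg
VKORC1L1 upstream: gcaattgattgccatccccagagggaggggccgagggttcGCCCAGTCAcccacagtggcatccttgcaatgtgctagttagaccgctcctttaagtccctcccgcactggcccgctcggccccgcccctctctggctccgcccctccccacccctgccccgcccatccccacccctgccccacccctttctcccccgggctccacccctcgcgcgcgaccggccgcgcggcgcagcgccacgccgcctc

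Promoters were available for 6 of the 7 genes, and the 250 bases before each start were searched on both strands. The antioxidant core was found in AIFM2 and VKORC1L1, and in 11.0% of 27305 promoters of the same length. The AP-1 motif TGANTCA, present in 6.6% of promoters, was found in AIFM2 only among the 6, where it overlaps the antioxidant core. The E-box CACGTG, present in 6.49% of promoters, was found in DHODH, and neither TGACGTCA nor TGATGNAA was found in any of the 6. Of the 42 genes in the pathway lists described further on, 37 had a promoter and 6 held the antioxidant core: AIFM2, VKORC1L1, VKORC1, COQ6, HPDL and GCHFR. Promoters of the other list genes that fell in LP-1 (NMT2, CYB5R3, SPR and PCBD1) held no match to it. A match describes these letters and is not a measured binding site.

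AIFM2 encodes FSP1, an oxidoreductase that is myristoylated, sits at the plasma membrane and on lipid droplets, and uses NAD(P)H to reduce ubiquinone and vitamin K. It lies on chromosome 10 (70098223 to 70132934, minus strand, GENCODE v29 on GRCh38). In U266 its level was 10.1, 10.2 and 10.9 FPKM with DMSO and 16.1, 13.8 and 12.5 FPKM with DHA. Every DHA library was above every DMSO library, and DHA replicate 3 was the lowest of the DHA libraries. The mean rose from 10.4 ± 0.421 to 14.1 ± 1.84 FPKM (SD, n = 3), 1.36-fold, a log2 change of 0.40 with a standard error of 0.0857 and a 95% confidence interval of 0.21 to 0.59 (limma, adjusted p = 0.00402). Without DHA replicate 3 the log2 change was 0.48.

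In LP-1 AIFM2 was below the filter, at 0.62, 0.99 and 0.78 FPKM with DMSO and 0.40, 0.42 and 0.63 FPKM with DHA, or about 31 to 69 reads per library. The groups overlapped, since DHA replicate 3 was just above DMSO replicate 1. The means, 0.797 ± 0.186 and 0.483 ± 0.127 FPKM (SD, n = 3), gave p = 0.20 in a two-sided exact permutation test (0.10 is the smallest p that 3 against 3 allows). With no filter on low values, the AIFM2 change was -0.27 in LP-1 (limma, adjusted p = 0.224), and its difference from the U266 change was -0.68 (adjusted p = 0.00926). That difference rests on LP-1 libraries in which AIFM2 was below 1 FPKM.

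VKORC1L1, on chromosome 7 (65873166 to 65959563, plus strand), encodes a membrane enzyme of the endoplasmic reticulum that reduces vitamin K epoxide and vitamin K quinone and is a paralog of VKORC1. In U266 it was at 18.9, 18.7 and 18.7 FPKM with DMSO and at 14.6, 14.6 and 13.2 FPKM with DHA. The DMSO libraries were nearly equal, and all 3 DHA libraries lay below them. The mean fell from 18.8 ± 0.133 to 14.1 ± 0.811 FPKM (SD, n = 3), a log2 change of -0.39 with a 95% confidence interval of -0.51 to -0.26 (limma, adjusted p = 0.000493). Without DHA replicate 3 it was -0.34.

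LP-1 gave the other picture for VKORC1L1: 14.9, 15.8 and 14.0 FPKM with DMSO and 15.9, 16.5 and 15.9 FPKM with DHA. Every DHA library was above every DMSO library, by as little as 15.9 against 15.8 FPKM. The log2 change was 0.11 with a 95% confidence interval of -0.07 to 0.28 (limma, adjusted p = 0.281), and 0.07 without DMSO replicate 3. The test of the difference between the lines, over 8915 genes tested in both, gave 0.49 for LP-1 minus U266 with a 95% confidence interval of 0.29 to 0.69 (limma, adjusted p = 0.00181). VKORC1L1 was the 1 gene of the 5 tested in both lines whose changes differed, where 34.5% of all genes tested in both did (18.5% with the LP-1 change above and 16.0% with it below).

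**Figure D2:**
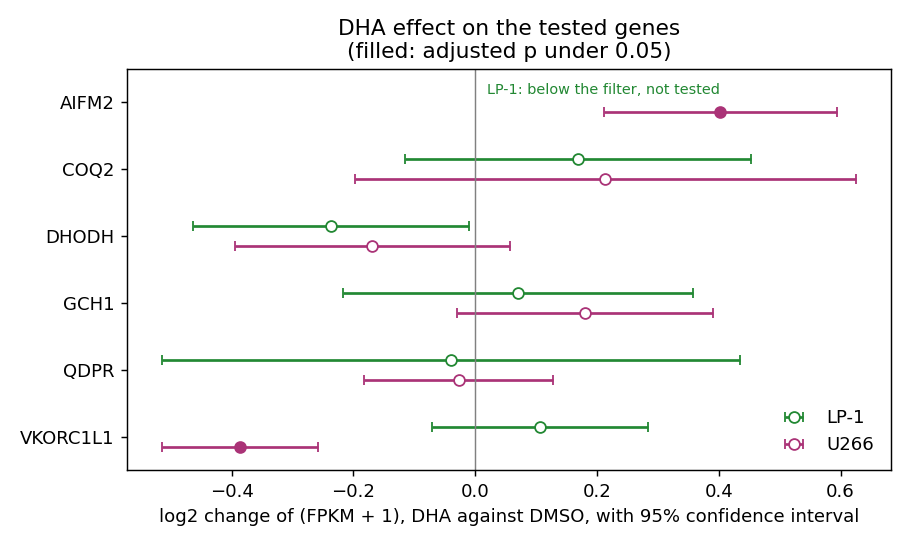
Log2 change of (FPKM + 1) with DHA in each line for the 6 genes that were tested, with 95% confidence intervals and filled points where the adjusted p was under 0.05. Of the 11 intervals drawn, the filled ones are AIFM2 at 0.40 and VKORC1L1 at -0.39, both in U266.

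DHODH, on chromosome 16 (72008588 to 72027664, plus strand), oxidises dihydroorotate at the inner mitochondrial membrane and passes the electrons to ubiquinone. In LP-1 it was at 4.39, 4.45 and 5.26 FPKM with DMSO and 3.84, 4.06 and 3.59 FPKM with DHA. All 3 DHA libraries lay below all 3 DMSO libraries, and DMSO replicate 3 was the highest. The log2 change of -0.24 (95% confidence interval -0.46 to -0.01) had an unadjusted p of 0.0429 and did not pass after adjustment (limma, adjusted p = 0.0871). In U266 DHODH was at 3.09, 3.51 and 3.52 FPKM with DMSO and 3.11, 2.66 and 2.90 FPKM with DHA, and the groups overlapped. The log2 change of -0.17 did not pass (limma, adjusted p = 0.216). The difference between the lines was -0.07, with a 95% confidence interval of -0.34 to 0.20.

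COQ2, on chromosome 4 (83261536 to 83284914, minus strand), attaches the polyprenyl tail to the ring of ubiquinone. It was at 1.58, 2.00 and 2.34 FPKM with DMSO and 2.36, 2.18 and 2.44 FPKM with DHA in LP-1. In U266 it was at 1.59, 3.02 and 3.40 FPKM with DMSO and 3.28, 2.70 and 3.52 FPKM with DHA. DMSO replicate 1 was the lowest library in both lines, and the groups overlapped in both. The log2 changes were 0.17 in LP-1 and 0.21 in U266, neither past the threshold (limma, adjusted p = 0.288 and 0.389), with 95% confidence intervals of -0.12 to 0.45 and -0.20 to 0.63. Without DMSO replicate 1 they were 0.07 in LP-1 and -0.02 in U266, so that in U266 the sign rested on that library. Without DMSO replicate 3 they were 0.26 and 0.36, and neither passed.

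GCH1, on chromosome 14 (54842008 to 54902852, minus strand), catalyses the first and rate-limiting step of tetrahydrobiopterin synthesis from GTP. LP-1 held 2.19, 2.13 and 2.86 FPKM with DMSO and 2.76, 2.66 and 2.24 FPKM with DHA. U266 held 5.94, 6.73 and 7.80 FPKM with DMSO and 7.38, 7.81 and 8.31 FPKM with DHA. In U266 the 3 DHA libraries overlapped the DMSO range only at DMSO replicate 3, and in LP-1 the groups were interleaved. The log2 changes were 0.07 and 0.18, and neither passed (limma, adjusted p = 0.661 in LP-1 and 0.158 in U266). In LP-1 the change was 0.17 without DMSO replicate 3 and 0.02 without DMSO replicate 2, and in U266 it was 0.10 without DMSO replicate 1, none of which passed.

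QDPR, on chromosome 4 (17460261 to 17512234, minus strand), regenerates tetrahydrobiopterin from its quinonoid dihydro form. In U266 it was at 10.0, 11.3 and 11.0 FPKM with DMSO and 10.3, 10.1 and 11.2 FPKM with DHA, and the groups overlapped fully (log2 change -0.03, 95% confidence interval -0.18 to 0.13). In LP-1 it was at 8.78, 8.30 and 14.6 FPKM with DMSO and 9.92, 9.96 and 9.90 FPKM with DHA. DMSO replicate 3 alone was above the DHA libraries and the other DMSO libraries were below them. With all libraries the log2 change was -0.04 (limma, adjusted p = 0.884). Without DMSO replicate 3 it was 0.20 and passed (adjusted p = 0.0186), so that library sets both the sign and the call for QDPR in LP-1.

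PROM2, on chromosome 2 (95274453 to 95291308, plus strand), encodes prominin-2, a membrane glycoprotein that promotes the export of ferritin-bound iron in multivesicular bodies and exosomes. It was below the filter in both lines. In LP-1 it was at 0.04, 0.01 and 0.02 FPKM with DMSO and at 0, 0.01 and 0 FPKM with DHA, at most 3 reads in a library. In U266 it was listed at 0, 0 and 0.0227 FPKM with DMSO and at 0, 0 and 1.57 FPKM with DHA. All but about 2 of the reads in U266 were in DHA replicate 3, which held about 156 reads. A count of 3 reads would be 0.0227 to 0.0479 FPKM in the U266 libraries and 0.0283 to 0.0368 FPKM in those of LP-1, for counting error only.

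The same U266 library held the paralog PROM1 at 2.26 FPKM, which was listed at 0 in the other 5. Its 5 T and NK cell markers summed to 9.22 FPKM against 0.444 to 1.70 FPKM in the other U266 libraries, and 3 of the 5 were highest in it. For 5 monocyte and macrophage markers the sums were 5.46 FPKM against 0.624 to 1.51 FPKM. The part of these transcripts in the PROM2 value was not tested. Without DHA replicate 3 no U266 library with DHA had a PROM2 read.

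By FPKM within a line, VKORC1L1 had the highest mean of the 7 genes in every group. In LP-1 with DMSO the order was VKORC1L1, QDPR, DHODH, GCH1, COQ2, AIFM2 and PROM2, with overlapping values for VKORC1L1 and QDPR and for GCH1 and COQ2. With DHA the order was the same and only GCH1 and COQ2 overlapped. In U266 with DMSO the order was VKORC1L1, QDPR, AIFM2, GCH1, DHODH, COQ2 and PROM2, and QDPR overlapped AIFM2 as DHODH overlapped COQ2. In U266 with DHA, AIFM2 stood above QDPR without overlap and its 3 values overlapped those of VKORC1L1, at means of 14.1 FPKM for both.

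The pathways around the 7 genes were described with lists of 42 genes, the 7 included. In LP-1 35 of the 42 were tested, of which 10 rose, 5 fell and 20 did not pass, with a median log2 change of 0.08 against 0.01 over all tested genes. The 15 called of 35 stood beside 40.2% of all tested genes. That count depended on single libraries: 15 genes were called with all libraries, 7 without DMSO replicate 1, 22 without DMSO replicate 3 and 6 without any 1 of the 3 DHA libraries. Calls over all 12514 tested genes moved the same way. They numbered 5027 with all libraries, 3612 without DMSO replicate 1, 7073 without DMSO replicate 3 and 2919 to 2994 without any 1 DHA library. In U266 36 were tested, of which 6 rose, 9 fell and 21 did not pass, with a median of 0.00 against 0.02, and the 15 called of 36 stood beside 40.7% of all tested genes. Both shares are near those over all genes. Without U266 DHA replicate 3, 6 rose and 8 fell. Counts of the single lists below stand beside 20.0% of all tested genes that rose and 20.2% that fell in LP-1, and 21.1% and 19.6% in U266.

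Around FSP1, CYB5R3, a NADH-dependent reductase, fell in both lines. It went from 8.64 ± 0.984 to 5.79 ± 0.143 FPKM in LP-1 and from 14.1 ± 1.28 to 8.93 ± 1.66 FPKM in U266 (SD, n = 3; log2 changes -0.50 and -0.61; limma, adjusted p = 0.00814 and 0.00161). NMT2, one of the enzymes that attach myristate to proteins, fell in LP-1 by 0.49 on the log2 scale (adjusted p = 0.00534). Of the 5 genes in this list, none rose and 2 of 4 tested fell in LP-1, and 1 rose (AIFM2) and 1 fell (CYB5R3) in U266. Without LP-1 DMSO replicate 3 all 4 were called there, 2 up and 2 down, since NMT1 and NQO1, a quinone reductase, then rose (log2 changes 0.20 and 0.61; adjusted p = 0.0139 and 0.00146). With quantile normalization NQO1 also rose in LP-1.

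Among the 14 genes of ubiquinone synthesis, 12 were tested in each line: 3 rose and none fell in LP-1, and 4 rose and 2 fell in U266. In LP-1 none was called without DMSO replicate 1 or without any 1 DHA library, 2 rose and 2 fell without DMSO replicate 2, and 4 rose and 1 fell without DMSO replicate 3. In U266 2 rose and 2 fell without DMSO replicate 2 or without DMSO replicate 3. COQ10B, a lipid-binding protein needed for ubiquinone function, rose in both lines, from 8.42 ± 1.35 to 12.0 ± 0.283 FPKM in LP-1 and from 19.9 ± 0.609 to 27.4 ± 2.55 FPKM in U266 (limma, adjusted p = 0.0185 and 0.000611). In LP-1 it no longer passed without DMSO replicate 1 or without any 1 DHA library (log2 change 0.44 to 0.48, adjusted p = 0.0646 to 0.0748). COQ10A went the other way and fell in U266 (log2 change -0.41; limma, adjusted p = 0.00232). In LP-1 the COQ10A change of -0.43 did not pass (adjusted p = 0.0852), though it did in 1 of 13 alternatives. PDSS1, which makes the polyprenyl tail that COQ2 attaches, rose in LP-1 (log2 change 0.55, adjusted p = 0.0229) and fell in U266 (log2 change -0.40, adjusted p = 0.0123). The rise of PDSS1 in LP-1 likewise did not pass in those 4 cases (log2 change 0.48 to 0.60, adjusted p = 0.0578 to 0.0878). COQ8B, an atypical kinase of the synthesis complex, rose in U266 by 0.63 on the log2 scale (limma, adjusted p = 0.024), with 3.35, 3.37 and 6.53 FPKM in the DHA libraries. Replicate 3 was again the library apart, and without it the COQ8B change was 0.37. COQ8B did not pass without U266 DMSO replicate 2 or without DMSO replicate 3 (adjusted p = 0.0597 to 0.0748). In all it did not pass in 3 of 12 alternatives, at an adjusted p of up to 0.118.

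Among the pyrimidine genes around DHODH, CAD and CTPS1 rose in LP-1 and fell in U266. In LP-1 2 of 4 tested rose and none fell, with a median log2 change of 0.28, and in U266 3 of 4 fell and none rose, with a median of -0.32. Over all tested genes 20.0% rose and 20.2% fell in LP-1, with a median of 0.01, and 21.1% rose and 19.6% fell in U266, with a median of 0.02. CTPS1 alone was called in LP-1 without DMSO replicate 1 or without any 1 DHA library, and 2 of 4 fell in U266 without DMSO replicate 1. CAD, which carries out the steps before DHODH, was at 16.6, 16.5 and 8.36 FPKM with DMSO and 23.1, 24.4 and 22.8 FPKM with DHA in LP-1. In U266 CAD was at 38.1, 36.7 and 36.4 FPKM with DMSO and 27.3, 27.3 and 28.5 FPKM with DHA. The groups lay apart in both lines, upwards in LP-1 and downwards in U266 (log2 changes 0.78 and -0.41; limma, adjusted p = 0.0459 and 9.12e-05). The LP-1 value leaned on DMSO replicate 3, without which it was 0.48. It did not pass without DMSO replicate 1 or without any 1 DHA library (adjusted p = 0.0524 to 0.128). With a pseudocount of 0.1 (adjusted p = 0.0503) or with no filter (0.107) it did not pass either. CTPS1, which makes CTP, rose by 0.52 in LP-1 and fell by 0.42 in U266 on the log2 scale (limma, adjusted p = 0.00296 and 0.000114). For both genes the difference between the lines passed (CAD 1.19, adjusted p = 0.00461; CTPS1 0.94, adjusted p = 1.88e-05). DHODH itself was lower with DHA in the means of both lines and passed in neither.

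Of 7 biopterin genes, 6 were tested in each line. In LP-1 PCBD1 fell (log2 change -0.45, limma adjusted p = 0.0169) and PCBD2 rose (0.43, adjusted p = 0.0162). The pair encode dehydratases that recycle the cofactor. SPR, the last enzyme of synthesis, also fell in LP-1, and the other 3, GCH1, QDPR and PTS, did not pass. Without any 1 DHA library none of PCBD1, PCBD2 and SPR passed, and PCBD1 and SPR did not pass without DMSO replicate 1 either. The adjusted p was then 0.0522 to 0.0702 for PCBD1, 0.0545 to 0.0736 for PCBD2 and 0.0736 to 0.104 for SPR. With no filter PCBD2 (adjusted p = 0.0501) and SPR (0.0697) did not pass. Without DMSO replicate 3, QDPR and PTS rose as well, so that 3 rose and 2 fell. In U266 none of the 6 passed in limma, at adjusted p or at an unadjusted p under 0.05, and PCBD1 rose without DHA replicate 2 (log2 change 0.45).

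**Figure D3:**
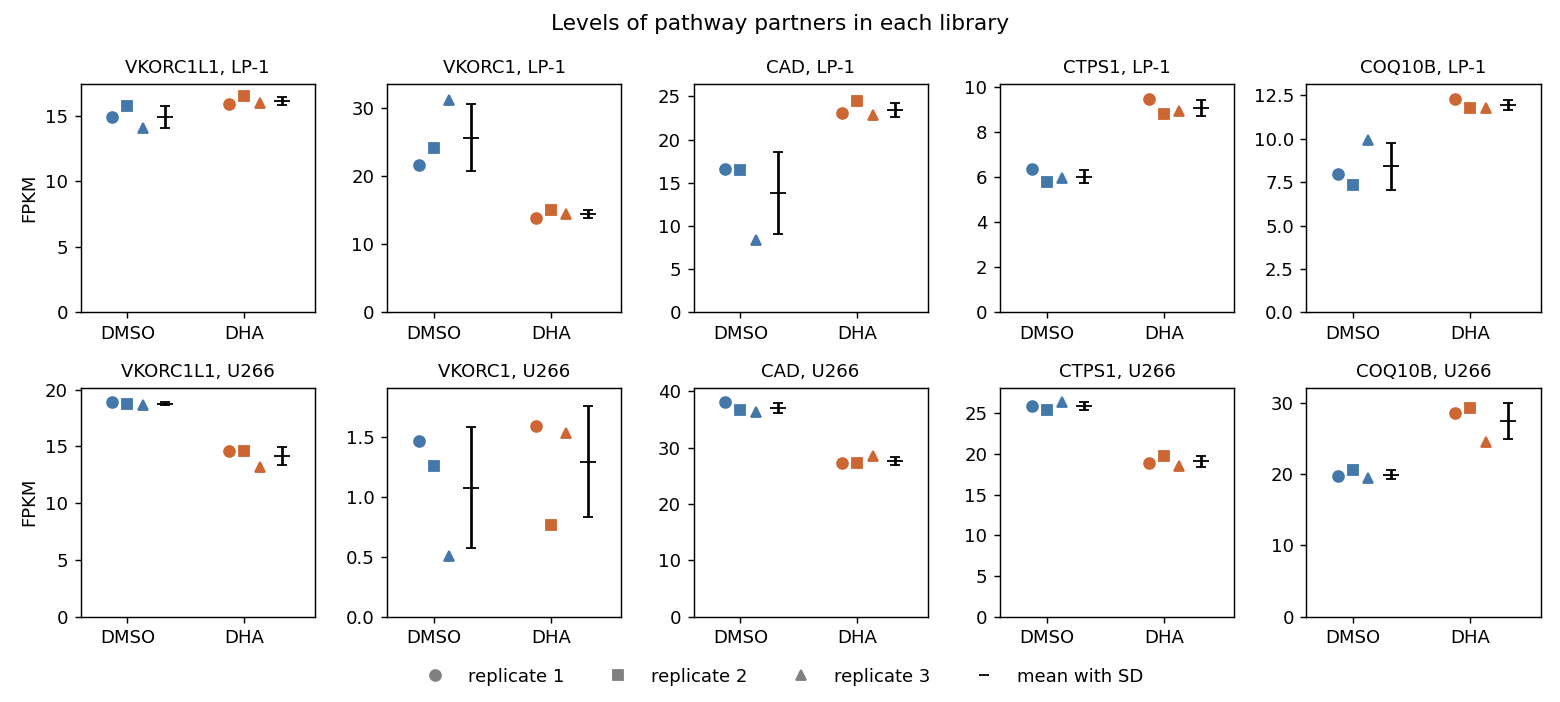
FPKM of VKORC1L1, VKORC1, CAD, CTPS1 and COQ10B in each of the 12 libraries, with points for libraries and the mean with SD of 3 libraries per group. CAD and CTPS1 are higher with DHA in LP-1 and lower in U266, COQ10B is higher with DHA in both lines, and VKORC1 is lower in LP-1 with overlapping groups in U266.

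In the vitamin K cycle, VKORC1 fell in LP-1 while its paralog VKORC1L1 did not. VKORC1 was at 21.6, 24.2 and 31.1 FPKM with DMSO and 13.8, 15.1 and 14.4 FPKM with DHA in LP-1, with the groups far apart and DMSO replicate 3 the highest (log2 change -0.77; limma, adjusted p = 0.00611). In U266 VKORC1 was at 0.503 to 1.47 FPKM with DMSO and 0.761 to 1.59 FPKM with DHA, and did not pass. Within each LP-1 library the ratio of VKORC1 to VKORC1L1 FPKM was 1.45, 1.54 and 2.22 with DMSO and 0.869, 0.915 and 0.903 with DHA. All 3 DHA ratios were below 1 and all 3 DMSO ratios above it (two-sided exact permutation p = 0.10, the smallest that 3 against 3 allows). In U266 the ratio was 0.027 to 0.0775 with DMSO and 0.0521 to 0.116 with DHA, and the groups overlapped (exact permutation p = 0.30).

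GGCX, the carboxylase that consumes reduced vitamin K, rose in LP-1 from 2.46 ± 0.0681 to 3.63 ± 0.146 FPKM (SD, n = 3; log2 change 0.42; limma, adjusted p = 0.00727). In U266 it was at 4.28, 4.59 and 3.89 FPKM with DMSO and 4.62, 5.01 and 6.11 FPKM with DHA. All 3 DHA libraries lay above the DMSO libraries there, and DHA replicate 3 was the highest, but the log2 change of 0.25 did not pass (limma, adjusted p = 0.0929). Of these 3 genes of the vitamin K cycle, 1 rose, 1 fell and 1 did not pass in LP-1, and VKORC1L1 alone was called in U266.

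The last list held 6 further genes that bear on ferroptosis without GPX4, not all in 1 direction. MBOAT1, an acyltransferase that remodels membrane phospholipids, rose in both lines. It went from 9.40 ± 0.130 to 15.1 ± 0.290 FPKM in LP-1 and from 20.7 ± 1.17 to 24.9 ± 1.77 FPKM in U266 (SD, n = 3; limma, adjusted p = 0.000978 and 0.0109). TXNDC12, a thioredoxin-like protein of the endoplasmic reticulum, rose in LP-1 (log2 change 0.33, adjusted p = 0.0263). That call did not hold without any 1 library other than DMSO replicate 3 (adjusted p = 0.0518 to 0.102), and it held in 4 of 12 alternatives. DHCR7, which turns a radical-trapping sterol into cholesterol and so is known to favour ferroptosis, fell in U266 by 0.45 on the log2 scale (adjusted p = 0.000346). In this list 3 rose and none fell in LP-1, and 1 rose and 2 fell in U266. In LP-1 1 rose without DMSO replicate 1 or without any 1 DHA library, 1 rose and 1 fell without DMSO replicate 2, and 3 rose and 1 fell without DMSO replicate 3. In U266 1 rose and 1 fell without DMSO replicate 1, DMSO replicate 3 or DHA replicate 3.

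Of the 34 list genes tested in both lines, COQ10B and MBOAT1 rose in both and CYB5R3 fell in both. PDSS1, CAD, CTPS1 and STARD7 rose in LP-1 and fell in U266, and none did the reverse. Over all 8915 genes tested in both lines, 10.2% rose in both, 6.07% fell in both, 2.38% rose in LP-1 and fell in U266, and 1.41% did the reverse. The LP-1 and U266 changes differed for 19 of the 34, or 55.9%, beside 34.5% of all genes. The LP-1 change was the higher in 12 of these and the lower in 7. The number whose changes differed was 12 to 19 when 1 library was left out, 15 with no filter and 15 with the replicate number as a block. Over all genes tested in both lines it was 2341 to 4258 when 1 library was left out, against 3077 with all. The lists were chosen with earlier results of these data known, so the shares are a description and no test of an excess. The call of STARD7 was lost in LP-1 without any 1 library other than DMSO replicate 3 and in U266 without DMSO replicate 1, DMSO replicate 3 or DHA replicate 3. It held in 4 of 13 alternatives in LP-1 and in 8 of 13 in U266.

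**Figure D4:**
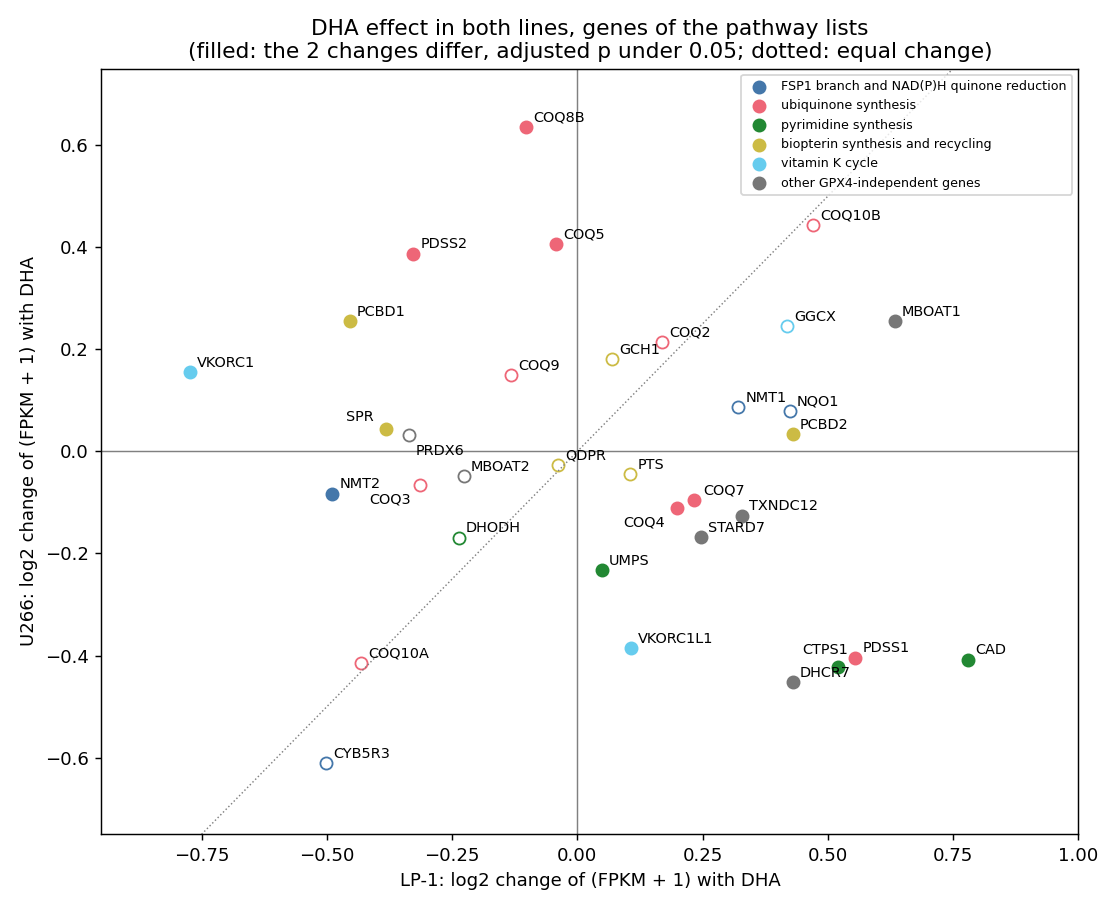
Log2 change of (FPKM + 1) with DHA in LP-1 (horizontal axis) and U266 (vertical axis) for the 34 list genes tested in both lines, coloured by list, filled where the changes of the lines differed at an adjusted p under 0.05. CAD, CTPS1, PDSS1 and STARD7 lie at the lower right, and COQ10B and MBOAT1 at the upper right.

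For the 5 genes tested in both lines, the genes with the most similar levels were found by Pearson's r over the 12 libraries after each line's mean was subtracted, among 8915 genes and as a description. VKORC1L1 was nearest to DDX46 (r = 0.973), MCM4 (0.972) and POLR2B (0.969), all lower with DHA in U266. DHODH was nearest to NDUFAF3 (0.964), COPE (0.962) and CTBP1 (0.948). QDPR was nearest to NDUFB9 (0.982), POLR2G (0.966) and CCDC12 (0.955). The spread of QDPR lay largely in LP-1 DMSO replicate 3, at 14.6 FPKM against 8.30 to 9.96 FPKM in the other LP-1 libraries. Its r values lean on that library, and r without it was not computed. The values of r were lower for GCH1, at 0.90 for RBM22, 0.864 for ESRRA and 0.861 for PIP4P1, and for COQ2, at 0.844 for GPR89A, 0.825 for NR1H3 and 0.825 for SLC66A1. All these points share libraries and depth. Only each line's mean was subtracted, so the change with DHA is part of r. The shared direction of VKORC1L1 and its nearest genes in U266 follows from that choice.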

How the data were processed

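RNA was measured in 12 libraries of LP-1 and U266 cells. Per the labels' protocols, an RNeasy kit gave the RNA and a SMARTER mRNA kit the libraries. Each line has a table of FPKM values deposited by the authors, LP-1 by Ensembl gene and U266 by symbol. The submitters' processing notes list GRCm38 and mm10, which are mouse builds, although the genes are human. Not given in the sources used here are aligner, counter, annotation and whether counting used strand. FPKM scales out depth, so a fall in abundant transcripts raises the rest.

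From these, log2(FPKM + 1) was fitted in each line with limma 3.58.1 (R 4.3.3; lmFit, eBayes with trend; two-sided; Benjamini-Hochberg over all tested genes; threshold 0.05), after a filter of 1 FPKM in at least 3 of 6 libraries. An interaction contrast over all 12 libraries tested whether the lines differed. Exact permutation tests used scipy 1.17.1. Simulated data had only a small part of the genes changed, far fewer than were called in the real data. With the LP-1 genes 61% of log2 changes of 1 and 19% of 0.5 were recovered, and with the U266 genes 91% and 68%. These shares hold for that setting and do not give the power of the tests reported here. Reads were recovered from FPKM steps with GENCODE v29 exon lengths; of values of at most 30 reads, those within 0.1 of a whole read made up 89.3 to 90.7% (LP-1) and 94.5 to 95.9% (U266). Alternatives were TMM-style scaling, quantile normalization, no filter, a filter at a mean of 5 FPKM, a pseudocount of 0.1, eBayes without trend, a replicate block and leaving out each library.

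The 7 genes and the lists were chosen with earlier results of these data known. Named from the lists were genes called in both lines in 1 direction and, in each line, the 2 called genes of each list with the largest change; for each gene tested in both lines, the 3 with the highest r were named. SPR, PTS, NMT1, NQO1, COQ6, COQ10A, HPDL, GCHFR and STARD7 were named after their values were seen. Some list genes are not reported here and are in no count of the lists.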

Additional observations from a re-analysis of the deposited data

Results flagged for a closer look

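The change with DHA differed between LP-1 and U266 for 19 list genes (limma interaction, adjusted p under 0.05), given here as the LP-1 minus the U266 log2 change. VKORC1L1 was the only 1 of the 7 genes among them, at 0.49. In its own cycle VKORC1 was at -0.93, a difference that rests on U266 libraries in which it was at 0.503 to 1.59 FPKM, near the filter. The pyrimidine genes were CAD at 1.19, CTPS1 at 0.94 and UMPS at 0.28. In ubiquinone synthesis the LP-1 change was above that in U266 for PDSS1 (0.96), COQ7 (0.33) and COQ4 (0.31), and below it for COQ8B (-0.74), PDSS2 (-0.72) and COQ5 (-0.45). In the biopterin list it was above for PCBD2 (0.40) and below for PCBD1 (-0.71) and SPR (-0.43). NMT2 was at -0.41. Among the further genes DHCR7 was at 0.88, TXNDC12 at 0.45, STARD7 at 0.41 and MBOAT1 at 0.38. The genes are named because this difference passed the test. Of the 19, 11 passed in every setting run, VKORC1L1, CAD, CTPS1 and PDSS1 among them. The other 8 missed the threshold when 1 library was left out. This happened for COQ4, COQ5, COQ8B, PCBD2 and SPR with 6 to 9 of the 12 libraries and for NMT2, UMPS and VKORC1 with 2 or 3 of them. Their adjusted p was then 0.0514 to 0.116. All 8 also missed the threshold in other settings of the processing. The highest adjusted p over all alternatives was 0.0732 for UMPS, 0.0793 for NMT2 and 0.0854 for VKORC1.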

How the results depend on the processing

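AIFM2 in U266, VKORC1L1 in U266 and the VKORC1L1 difference between the lines passed under every alternative that was run. Their log2 values ranged from 0.31 to 0.48, from -0.41 to -0.34 and from 0.45 to 0.53. QDPR in LP-1 changed sign without DMSO replicate 3, to 0.20, and ranged from -0.18 to 0.20 as libraries were left out; the cause was not tested. That made the number of the 7 genes called in LP-1 range from 0 to 1 as libraries were left out. With no filter, 2 of the 7 genes differed between the lines in place of 1, since AIFM2 then entered the test.

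With a mean of at least 5 FPKM, fewer genes were tested, and 3034 were called in LP-1 (5027 otherwise) and 2017 between the lines (3077 otherwise). Leaving out 1 library gave 2919 to 7073 calls in LP-1 and 2341 to 4258 between the lines, with fewer samples in each. List genes called in LP-1 numbered 8 with no filter and 6 to 22 as libraries were left out, against 15.

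Deviations of same-numbered replicates correlated at 0.0742, 0.0237 and 0.183 in LP-1, where 0.183 for number 3 was the highest of all pairs. In U266 they did not deviate together (-0.0386, -0.0832 and -0.0247). Not every sample correlated best with its own number in either line. With the replicate number as a block, 4559 genes were called in LP-1, 3891 in U266 (4241 without it) and 2880 between the lines. Low reads limit AIFM2 in LP-1 and PROM2 in both lines.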
